A study of Homo sapiens with 9 samples.

Results

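PMAIP1 and 6 other genes linked to the tumour suppressor p53 (BBC3, BAX, CDKN1A, MDM2, FAS and SESN1) were followed over 9 single-channel Affymetrix whole-transcript arrays. The rule took the brightest transcript cluster annotated to each symbol, by its mean over the arrays, and each of the 7 genes had 1 cluster with its name alone. They were 7 of 18417 named genes, and 5 of them were among the 12254 genes bright enough to be tested, which means that their highest value over the 9 arrays was above 7.71, the median of all values on the log2 scale. CDKN1A, with a highest value of 7.50, and FAS, with 5.77, were below that limit.

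The cells were NCCIT, an established human embryonal carcinoma line with many features of pluripotent stem cells. In non-adherent dishes these cells clump into embryoid bodies, in which differentiation starts. One array was made from undifferentiated cells without ethanol or FA. The other 8 arrays were made from embryoid bodies at day 7 and day 21, and at each day 1 array was untreated, 1 had 50 mM ethanol, 1 had an additive abbreviated FA, and 1 had ethanol and FA together. No source used here spells out FA or its dose, and the protocol text describes a 7-day ethanol exposure, while day 21 is known from the sample titles. All arrays come from a single cancer line, each condition has 1 array, and nothing in the labels says that the arrays came from separate cultures, so the p-values below reflect the spread among single arrays, part of which may be technical. The day 7 ethanol array stood a little apart from the others of its day, with a mean correlation of 0.983 over the tested genes, against 0.989 to 0.99 for the other day 7 arrays and 0.991 to 0.993 at day 21.

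p53 is a transcription factor that stressed or damaged cells use to stop dividing, repair DNA or die. Its death targets include PMAIP1 (the protein NOXA) and BBC3 (PUMA), BH3-only proteins that bind and block the protective members of the BCL2 family, which frees BAX to open pores in the mitochondrial membrane. FAS is a death receptor at the cell surface, CDKN1A (the protein p21) inhibits cyclin-dependent kinases, SESN1 restrains growth signalling under stress, and MDM2 marks p53 for degradation and so closes a feedback loop. PMAIP1 can also be switched on without p53, by the transcription factor ATF4 in the integrated stress response, which answers amino acid shortage and unfolded protein. NCCIT cells have been described as carrying a mutated p53 gene. The level and sequence of that gene were not analysed here.

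Promoter sequences are shown for the pair of genes whose levels moved past the test, since they carry different motifs near the start of the gene. RefSeq promoter windows of 300 bases (250 before and 50 after the start site, build GRCh38.p14) were matched for all 7 genes, in 14 windows. In the lines below, given 5′ to 3′ on the plus strand, capitals mark the motif found.
PMAIP1, chr18:59899746-59900045: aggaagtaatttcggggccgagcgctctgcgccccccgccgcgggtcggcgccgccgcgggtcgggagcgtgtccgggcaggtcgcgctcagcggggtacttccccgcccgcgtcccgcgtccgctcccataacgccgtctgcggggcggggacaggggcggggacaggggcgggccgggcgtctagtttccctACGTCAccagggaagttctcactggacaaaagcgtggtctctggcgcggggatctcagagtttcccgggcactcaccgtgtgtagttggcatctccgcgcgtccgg
MDM2, chr12:68808767-68809066: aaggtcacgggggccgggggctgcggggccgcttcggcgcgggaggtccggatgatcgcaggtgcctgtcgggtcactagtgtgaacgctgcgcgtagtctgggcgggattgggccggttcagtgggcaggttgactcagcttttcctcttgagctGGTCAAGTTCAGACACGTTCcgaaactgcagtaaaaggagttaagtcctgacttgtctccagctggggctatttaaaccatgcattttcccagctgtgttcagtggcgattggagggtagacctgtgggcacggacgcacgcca

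The PMAIP1 window held the core of a cAMP response element, searched as TGACGT on both strands and read here as ACGTCA, 56 bases before the start site. That core was present in 7.98% of all 35116 promoter windows. The MDM2 window shown held a match to the p53 response element, 94 bases before the start site. The element was searched as a pair of 10-base half-sites at most 2 bases apart. The core C and G were kept, and at most 2 mismatches in all were allowed. An overlapping MDM2 window held the same match, and the other MDM2 windows held none. Such a match was present in 0.749% of the windows. A FAS window had a match too, 122 bases before its start, and the other FAS windows had none. No window of PMAIP1, BBC3, BAX, CDKN1A or SESN1 had such a match, and sequence outside the windows was not searched. The share is per window, and MDM2 and FAS have several windows where PMAIP1 has 1. BAX had 4 copies of CACGTG and BBC3 had 1, a motif present in 7.26% of windows, and TGATGNAA, present in 3.62%, was matched in the window of none of the 7 genes. The motifs were chosen after the sequences had been seen, and a match is a description of letters, not of binding.

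PMAIP1 varied far more than the other 6 genes. Its log2 level was 10.93 on the undifferentiated array. At day 7 it was 10.05 untreated, 10.56 with ethanol, 9.98 with FA and 10.50 with both. At day 21 it was 8.09 untreated, 8.72 with ethanol, 7.77 with FA and 8.49 with both. The undifferentiated array was the highest, all 4 day 7 arrays were above all 4 day 21 arrays, and at each day both arrays with ethanol were above both arrays without it. The range over the arrays was 3.15, and the SD of 1.19 placed PMAIP1 at percentile 99.4 of the named genes. In the order of its levels, neighbours differed by less than the residual SD of 0.10 in 2 of 8 gaps, between the day 7 arrays without ethanol and between the day 7 arrays with ethanol. The widest gap, 1.26, separated the lowest day 7 array from the highest day 21 array.

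**Figure D1:**
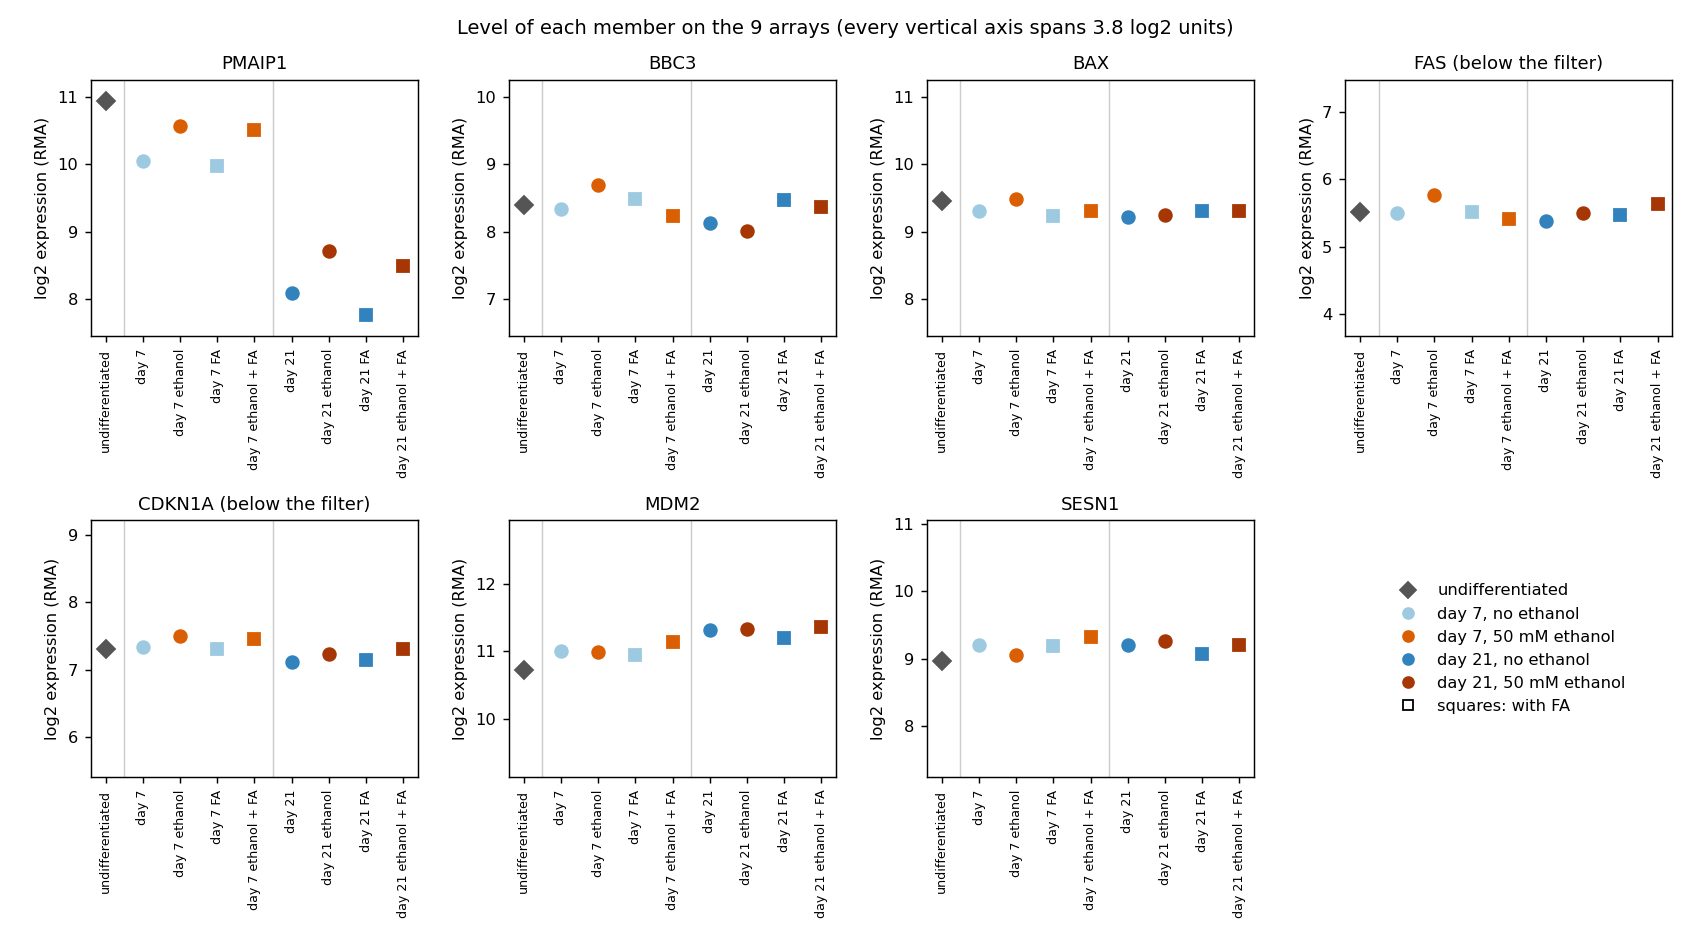
Log2 level (RMA, vertical axis) of each of the 7 genes on each of the 9 arrays (horizontal axis), with 1 point per array; orange and brown mark ethanol, and squares mark FA. PMAIP1 spans 3.15 log2 units from 10.93 in undifferentiated cells to 7.77 at day 21 with FA, while the other genes span 0.26 to 0.68.

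BBC3, the other BH3-only member, stayed between 8.01 and 8.69. It was 8.39 in undifferentiated cells. At day 7 it was 8.34 untreated, 8.69 with ethanol, 8.48 with FA and 8.24 with both, and at day 21 it was 8.13, 8.01, 8.47 and 8.37 in the same order. Its residual SD was 0.24, and all 8 gaps between neighbours in its order were smaller than that.

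BAX, the pore former, spanned 0.26, from 9.22 to 9.48. It was 9.46 in undifferentiated cells. The day 7 values were 9.30 untreated, 9.48 with ethanol, 9.23 with FA and 9.30 with both, and the day 21 values 9.22, 9.25, 9.30 and 9.30. The values of BAX are tied exactly on 4 arrays (6 distinct values over the 9), and 33.8% of the named genes (6234) have such tied arrays. In its order, 7 of 8 gaps were under the residual SD of 0.09.

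MDM2, the ubiquitin ligase that restrains p53, had the opposite order to PMAIP1 at the level of days. It was lowest in undifferentiated cells, at 10.72. At day 7 it was 11.00 untreated, 10.98 with ethanol, 10.95 with FA and 11.14 with both, and at day 21 it was 11.31, 11.33, 11.19 and 11.35. All day 21 arrays were above all day 7 arrays, with a range of 0.63, and 5 of 8 gaps were under the residual SD of 0.07.

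SESN1, a stress-response brake on growth signalling, lay between 8.97 in undifferentiated cells and 9.33 at day 7 with ethanol and FA. The other day 7 values were 9.20 untreated, 9.06 with ethanol and 9.19 with FA, and the day 21 values were 9.21, 9.27, 9.07 and 9.21. Day 7 and day 21 overlapped.

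The remaining pair of genes was dim throughout. CDKN1A was 7.30 in undifferentiated cells, 7.34, 7.50, 7.30 and 7.45 at day 7, and 7.12, 7.23, 7.15 and 7.30 at day 21, in the order untreated, ethanol, FA, both. FAS, the death receptor, was 5.51 in undifferentiated cells, 5.50, 5.77, 5.52 and 5.42 at day 7, and 5.38, 5.50, 5.47 and 5.63 at day 21. Values this low lie in the part of the scale that RMA compresses, and levels of different genes are not compared, since each cluster has its own probes. The same may hold for the lowest PMAIP1 value, 7.77 at day 21 with FA, which was close to the limit of 7.71.

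The first comparison was embryoid bodies against undifferentiated cells. PMAIP1 fell and MDM2 rose. The untreated embryoid body level of PMAIP1, averaged over both days in the fit, differed from that in undifferentiated cells by -1.87 ± 0.11 log2 units (SE), a 3.66-fold fall (95% interval 3.07 to 4.35, limma, Benjamini-Hochberg adjusted p = 1.3e-04). It was the fifth deepest fall among the genes that passed, and it was deeper at day 21 than at day 7: the single untreated arrays were 7.16-fold and 1.84-fold below the undifferentiated array. Among all tested genes, 2.23% were at least 2-fold lower and 4.94% at least 2-fold higher in that day 21 pair, and 0.424% and 1.23% in the day 7 pair. Of the 5 tested members, PMAIP1 was the 1 past 2-fold, at day 21. MDM2 was higher by 0.38 ± 0.10, or 1.31-fold (1.12 to 1.52, limma adjusted p = 0.0199). Without the day 7 untreated array the MDM2 value was 0.36 (limma adjusted p = 0.0716). Without the day 21 untreated array it was 0.34 (0.062). The call was lost without either array, while the size changed little. Calls over all tested genes also dropped without the day 7 untreated array, from 1345 to 844 higher and from 2104 to 1263 lower.

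Of the 5 tested genes, 1 passed in each direction. Over all tested genes, 11.0% passed as higher and 17.2% as lower, together 28.1%. BBC3 had a difference of -0.08 ± 0.21 (95% interval -0.57 to 0.41), BAX -0.18 ± 0.10 (-0.41 to 0.06) and SESN1 0.19 ± 0.12 (-0.09 to 0.47), none past the threshold of 0.05. SESN1 passed without the day 7 ethanol array, at 0.23 with a limma adjusted p of 0.0468. Over all tested genes, leaving out 1 array gave 844 to 2008 higher and 1263 to 2817 lower. In the fit without the brightness limit, CDKN1A had -0.08 ± 0.08 and FAS -0.03 ± 0.14, and neither passed. The undifferentiated state has a single array, assumed to vary like the others.

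**Figure D2:**
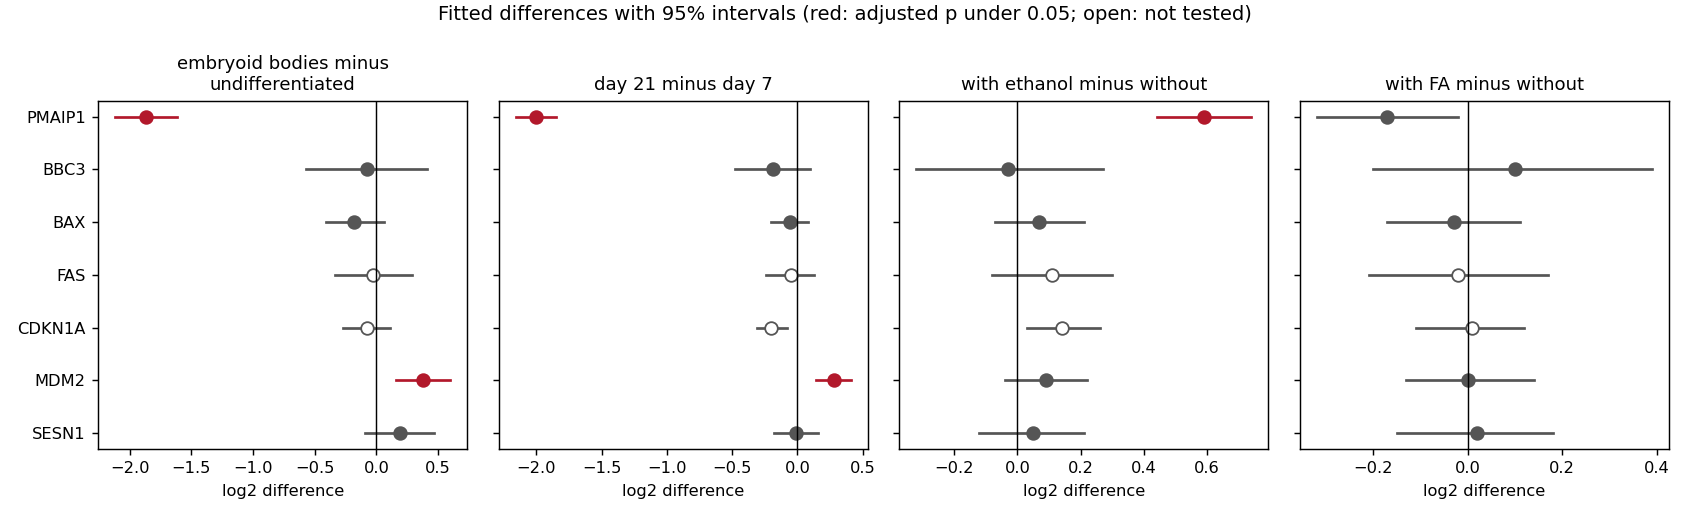
Log2 differences (horizontal axis) of the 7 genes for differentiation, day, ethanol and FA, as points with 95% intervals from the additive limma fit, red where the adjusted p was under 0.05 and open where the gene was below the brightness limit. PMAIP1 stands at -1.87 for differentiation, -2.0 for day 21 against day 7 and 0.59 for ethanol, and MDM2 at 0.38 and 0.28 for differentiation and day.

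The next comparison was day 21 against day 7. PMAIP1 fell by 2.0 ± 0.07 on the log2 scale, a 4.01-fold difference (95% interval 3.61 to 4.46, limma adjusted p = 3.0e-07), and MDM2 rose by 0.28 ± 0.06, or 1.21-fold (1.11 to 1.33, limma adjusted p = 0.00495). The PMAIP1 difference was -1.96 between the untreated arrays, -1.83 with ethanol, -2.21 with FA and -2.02 with both, so it was lower at day 21 in 4 of 4 pairs. By size it ranked 27 among the genes that fell. The MDM2 differences were 0.31, 0.35, 0.24 and 0.21 in the same order.

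Again 1 of the 5 tested genes passed in each direction, where 48.9% of all tested genes passed, 26.3% as higher and 22.6% as lower. BBC3 had -0.19 ± 0.13 (95% interval -0.48 to 0.10), BAX -0.06 ± 0.06 (-0.20 to 0.08) and SESN1 -0.01 ± 0.07 (-0.18 to 0.16), none past the threshold. BBC3 passed once the array of day 7 ethanol and FA was left out, at -0.31 with a limma adjusted p of 0.0481. Over all tested genes, leaving out 1 array gave 2474 to 3620 higher and 1963 to 3362 lower. CDKN1A passed only in the fit without the brightness limit, where it was lower at day 21 by -0.20 ± 0.05 (limma adjusted p = 0.0147), with a lower value in 4 of 4 pairs. FAS had -0.05 ± 0.08 there.

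Cell type markers moved with the day comparison. Of the 12 tested markers of embryonal carcinoma and pluripotent cells, 11 fell and 1 rose, and their mean log2 level was 11.65 in undifferentiated cells, 11.40 to 11.48 at day 7 and 9.99 to 10.34 at day 21. Of 6 tested neural markers, 4 rose, with a mean level of 7.79 in undifferentiated cells, 7.65 to 7.87 at day 7 and 9.31 to 9.37 at day 21. Over all tested genes 26.3% rose and 22.6% fell with day. Of the mesenchyme markers, 2 of 4 tested rose (PDGFRA by 2.67 and COL3A1 by 0.47). In the endoderm list 1 of 4 tested rose (GATA6 by 0.80), near the share of all genes, and 3 of the 4 were below 0 (median -0.09). The 1 tested marker of endothelium and blood, HBE1, rose by 1.03, and the 1 tested trophoblast marker, HAND1, fell by 0.82. The 1 tested marker of heart and muscle did not pass (-0.13). POU5F1, NANOG, TDGF1 and TUBB3 had no cluster with their name alone. COL1A2, LUM and DCN of the mesenchyme list, FOXA2 and AFP of the endoderm list, and PECAM1, CDH5, KDR, TEK and PTPRC of the endothelium and blood list stayed below the brightness limit on all arrays. The part of these marker changes in the PMAIP1 and MDM2 results was not tested. In bulk RNA, fewer cells that express a gene and less of its RNA per cell cannot be told apart.

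The comparison the series was built on was ethanol against no ethanol, at matched day and FA. PMAIP1 was the 1 gene of the 5 tested that rose, where 0.563% of all tested genes (69) passed as higher and 0.122% (15) as lower. Its level was higher with ethanol by 0.51 at day 7, 0.52 at day 7 with FA, 0.64 at day 21 and 0.71 at day 21 with FA, so it was higher in 4 of 4 pairs. The fitted difference was 0.59 ± 0.07 (95% interval 0.44 to 0.74), a 1.51-fold increase (1.36 to 1.67, limma adjusted p = 0.0227). It ranked 16 by size among the 69 genes that rose and 7 by p-value among all 84 called for ethanol.

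The size of that difference was steadier than its call. Leaving out each array in turn kept it between 0.54 and 0.64, while its adjusted p ranged from 0.0106 to 0.148. It kept passing without the undifferentiated array, without the day 7 ethanol array and without that of day 7 ethanol and FA. It missed the threshold without any 1 of the other 6 arrays: the day 7 untreated (adjusted p = 0.148), day 7 FA (0.104), day 21 untreated (0.1), day 21 ethanol (0.0899), day 21 FA (0.0807) and day 21 ethanol and FA (0.0746) arrays. Of the tested pluripotency markers, 0 of 12 passed for ethanol by limma. At an unadjusted limma p under 0.05 there were 5, where 17.5% of all tested genes lay under it, and 9 were above 0 (median 0.13). At day 21 their mean level was 10.08 untreated, 10.34 with ethanol, 9.99 with FA and 10.22 with both. The day 7 means were 11.44, 11.40, 11.45 and 11.48 in the same order. The part of these marker differences in the PMAIP1 ethanol difference was not tested. Of the neural markers 1 of 6 passed, NCAM1, at 0.47 ± 0.05 (limma adjusted p = 0.0227).

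None of the other 4 tested genes passed for ethanol. BBC3 had -0.03 ± 0.13 (95% interval -0.32 to 0.27), with pairs of 0.35, -0.24, -0.12 and -0.09, so only the day 7 pair without FA was above 0. BAX had 0.07 ± 0.06 (-0.07 to 0.21), MDM2 0.09 ± 0.06 (-0.04 to 0.22) and SESN1 0.05 ± 0.07 (-0.12 to 0.21). The intervals of BBC3, BAX, MDM2 and SESN1 all end below the 0.44 at which that of PMAIP1 begins. The members were chosen with earlier results of these data known, so this is a description and not a test between genes. Without the brightness limit CDKN1A had 0.14 ± 0.05 (limma adjusted p = 0.265), with pairs of 0.16, 0.15, 0.11 and 0.16 that were all above 0, and FAS had 0.11 ± 0.08.

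FA gave no call. In the fit 0 of 12254 genes passed for FA with limma, and 121 genes (0.987%) had an unadjusted p under 0.05. PMAIP1 was among those, at -0.17 ± 0.07 (95% interval -0.32 to -0.02, unadjusted p = 0.0341, limma adjusted p = 1.0). Its level was lower with FA in 4 of 4 pairs, by -0.06 and -0.06 at day 7 and by -0.31 and -0.24 at day 21. The largest of the other FA differences was that of BBC3, 0.10 ± 0.13, and its pairs ran from -0.45 to 0.36.

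Whether the treatments acted alike across conditions was tested with interaction terms. None of the 5 tested members passed, and over all tested genes 0.00816% (1 gene, lower) passed for ethanol by day and 0 for the other interactions, where 917, 100 and 1496 genes had an unadjusted limma p under 0.05 for ethanol by day, ethanol by FA and FA by day. For PMAIP1 the ethanol difference at day 21 minus that at day 7 was 0.16 ± 0.12 (95% interval -0.14 to 0.45, limma adjusted p = 0.922), and the ethanol difference with FA minus that without was 0.04 ± 0.14 (-0.29 to 0.38, limma adjusted p = 0.994). The FA difference at day 21 minus that at day 7 was -0.21 ± 0.11 for PMAIP1 (limma adjusted p = 0.418) and 0.50 ± 0.19 for BBC3 (limma adjusted p = 0.403, unadjusted p = 0.0301). With the array of day 7 ethanol and FA left out, BBC3 passed for ethanol by day, at -0.53. Many other genes passed in that fit too, which kept only 1 day 7 array with ethanol.

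The other genes of the pathway were taken from lists, which were chosen with results of these data known and are described by counts and medians. p53 regulators and p53 targets did not pass for ethanol: 0 of 10 regulators, 0 of 25 targets in arrest, repair and metabolism, and 0 of 10 targets in cell death were called by limma, with medians of 0.03, 0.01 and 0.10 beside 0.02 over all tested genes. At an unadjusted p under 0.05 the counts were 2, 4 and 4, where 17.5% of all tested genes lay under it. In the same order, 6 of 10, 13 of 25 and 8 of 10 were above 0. The largest ethanol differences among them were those of SESN2, 0.36 ± 0.09 (limma adjusted p = 0.109), and MDM4, a relative of MDM2 that restrains p53, at -0.30 ± 0.09 (0.166). SESN2 is also on the list of ATF4 and the integrated stress response below, so it is counted in both. TNFRSF10B, a death receptor for TRAIL, had -0.22 ± 0.06 (0.143).

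With day, genes of these lists passed in both directions, as 26.3% (higher) and 22.6% (lower) of all tested genes did. Among the regulators, HIPK2, a kinase that phosphorylates p53, rose by 2.01 ± 0.08, and PPM1D, a phosphatase, rose by 0.54 ± 0.07, while the checkpoint kinase CHEK2 fell by 0.65 ± 0.08. In all 3 regulators rose and 1 fell, and without the day 7 ethanol array 3 fell. The arrest, repair and metabolism targets were near those shares, with 8 of 25 higher and 5 lower (4 to 8 and 2 to 6 when 1 array was left out). Without the day 7 FA, day 21 untreated or day 21 ethanol array 5, 4 and 5 rose, and without those or the day 21 ethanol and FA array 3, 3, 2 and 3 fell. TP53INP1, a stress-induced p53 partner, rose by 2.04 ± 0.09 and SESN3 by 0.82 ± 0.10, and PHLDA1 fell by 0.70 ± 0.08. Of the cell death targets 5 of 10 rose and 2 fell: CASP6, an executioner caspase, by 0.95 ± 0.07, BID, a BH3-only protein that links death receptors to mitochondria, by 0.73 ± 0.06, and PERP, a membrane protein, by 0.63 ± 0.05 were the largest. The 3 medians were -0.05, 0.06 and 0.17, beside -0.01 over all tested genes.

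Against undifferentiated cells, 3 of 10 regulators were higher and 2 lower, 4 of 25 arrest, repair and metabolism targets were higher and 4 lower, and 4 of 10 cell death targets were higher and 2 lower. Over all tested genes the shares were 11.0% higher and 17.2% lower. Leaving out 1 array gave 3 to 7 higher and 2 to 6 lower of the 25, with 7 higher without the day 7 ethanol array and 2 lower without the untreated array of either day. HIPK2 was higher by 0.93 ± 0.13, MDM4 by 0.59 ± 0.15 and ATM, the kinase that senses DNA breaks, by 0.59 ± 0.17. Without the day 7 untreated or the day 21 untreated array 1 regulator was called higher, and the 2 lower calls became 0 without those arrays or the day 21 array with ethanol and FA, and 1 without the day 7 FA or day 21 FA array. Among the other targets CCNG2 was higher by 1.18 ± 0.12 and SESN2 lower by -1.44 ± 0.14, and in cell death TNFRSF10D was higher by 0.71 ± 0.11 and the nuclease AEN lower by -0.86 ± 0.12.

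Inside the BCL2 family, BH3-only genes moved in both directions with day. While PMAIP1 fell with day, BCL2L11 (the protein BIM) rose by 1.24 ± 0.06 (limma adjusted p = 2.2e-06) and BMF rose by 1.15 ± 0.05 (1.7e-06). Of the 7 tested BH3-only genes other than PMAIP1 and BBC3, 5 rose and 1 fell with day, with a median of 0.27 (26.3% and 22.6% of all tested genes). BID is also on the list of p53 targets in cell death, so it is counted in both. MCL1, the protective protein that NOXA binds, fell by 0.51 ± 0.07 (limma adjusted p = 5.6e-04), BCL2L1, which encodes BCL-XL, rose by 0.21 ± 0.06 (0.0175), and BCL2 had 0.05 ± 0.05 (0.442). BCL2L1 lost its call without the day 7 untreated, day 7 FA or day 21 FA array. BAK1, the partner of BAX, fell by 0.21 ± 0.06 with day, a call lost without the day 7 untreated, day 21 untreated, day 21 ethanol or day 21 ethanol and FA array. It was 0.76 ± 0.10 lower in embryoid bodies than in undifferentiated cells. With ethanol no gene of these lists passed in limma, and 3 had an unadjusted p under 0.05. BCL2L1 came nearest, at 0.34 ± 0.06 (limma adjusted p = 0.0508), and was higher in 4 of 4 pairs. It passed with the stricter brightness limit, with an intensity trend, with the matched pair as a block and when the day 7 ethanol array was left out.

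Further along the death receptor pathway, 3 of 8 tested genes rose with day (26.3% of all tested genes did, and 22.6% fell), CFLAR by 0.23, CASP9 by 0.17 and DIABLO by 0.17, and 1, CYCS (cytochrome c), fell by 0.24. The higher count was 0 when the day 7 FA array was left out and 1 when the day 7 untreated, day 21 ethanol or day 21 FA array was. The lower count was 0 without the day 7 FA, day 21 ethanol or day 21 FA array and 2 without the day 7 ethanol array. FADD, the adaptor of FAS, was lower in embryoid bodies than in undifferentiated cells by -0.57 ± 0.08. Of the 4 tested CDK inhibitors other than CDKN1A, CDKN1B (p27) rose by 0.85 ± 0.08 with day and CDKN2A by 0.50 ± 0.10, and CDKN2D fell by 0.25 ± 0.09, a call that was lost without any 1 of 6 arrays, all but the undifferentiated, day 7 ethanol and FA, and day 21 FA arrays. None of these genes passed for ethanol in limma (2 death receptor genes and 1 CDK inhibitor had an unadjusted p under 0.05). CDKN2A is also on the list of targets in arrest, repair and metabolism, so it is counted in both.

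The genes of ATF4 and the integrated stress response had medians below 0 for differentiation and day and above 0 for ethanol. The values of PMAIP1 had the same signs. So did the medians of the pluripotency markers (-1.03, -1.2 and 0.13) and of the other BCL2 family pore formers (-0.49, -0.13 and 0.09). The medians of the p53 regulators (-0.04, -0.05 and 0.03) and of the death receptor pathway (-0.12, -0.02 and 0.06) had these signs too. The same was true of the endoderm markers (-0.07, -0.09 and 0.14) and of all tested genes (-0.05, -0.01 and 0.02). The comparisons share arrays, and a link of any of these lists to PMAIP1 was not tested. All 26 genes of the ATF4 list were tested, and their median was -0.57 for differentiation, -0.32 for day and 0.17 for ethanol, beside -0.05, -0.01 and 0.02 over all tested genes. Against undifferentiated cells 16 were lower and 2 higher, where 17.2% of all tested genes were lower and 11.0% higher. With day 16 fell and 4 rose, where 22.6% of all tested genes fell and 26.3% rose. The 2 higher genes against undifferentiated cells were VLDLR and DDIT4, a count that ran from 1 to 4 when 1 array was left out. The largest day differences were those of ALDH1L2, a mitochondrial folate enzyme, -1.68 ± 0.07, SLC7A11, the cystine transporter, -1.51 ± 0.13, and CHAC1, which degrades glutathione, -1.36 ± 0.09. ATF4 itself was lower by -0.68 ± 0.08 against undifferentiated cells (limma adjusted p = 0.00153) and had 0.07 ± 0.05 with day (0.279) and 0.06 ± 0.05 with ethanol (0.59). EIF2AK4, the amino acid sensor GCN2, rose by 1.00 ± 0.06 with day, against the direction of the list.

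With ethanol 21 of the 26 were above 0, as were 8 of the 10 p53 targets in cell death. At an unadjusted limma p under 0.05 there were 16 of the 26, where 17.5% of all tested genes lay under it. Of the 26, 5 rose and 0 fell, where 0.563% of all tested genes rose and 0.122% fell. The 5 were SLC7A11 (0.88 ± 0.13), SLC7A5 (0.85 ± 0.10), ALDH1L2 (0.71 ± 0.07), CHAC1 (0.68 ± 0.09) and SLC3A2 (0.32 ± 0.05), with limma adjusted p-values of 0.0358, 0.0268, 0.0207, 0.0294 and 0.0493. SLC7A5 and SLC3A2 encode the light and heavy chain of an amino acid transporter. DDIT3, which encodes the stress factor CHOP, was not among them, at -0.38 ± 0.16 (limma adjusted p = 0.276). In the 4 pairs, 19, 20, 20 and 18 of the 26 genes were above 0, with medians of 0.27, 0.16, 0.15 and 0.14. Over all tested genes the pair medians were 0.01, 0.02, 0.02 and 0.01, and for the p53 targets in cell death 0.12, 0.14, 0.07 and 0.12. The count of 5 was no steadier than the PMAIP1 call: it was 0 without the day 7 untreated, day 7 FA, day 21 ethanol, day 21 FA or day 21 ethanol and FA array, and 1 without the day 21 untreated array. The p-values of PMAIP1 and of these genes rest on the same arrays.

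**Figure D3:**
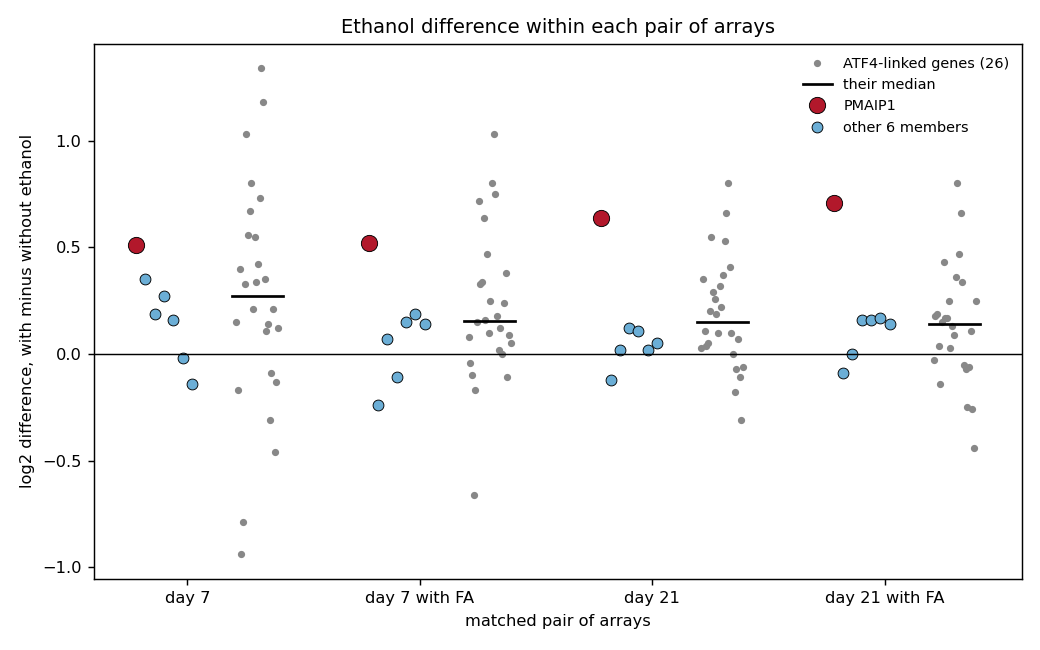
Log2 difference with minus without ethanol (vertical axis) in each of the 4 pairs of arrays matched on day and FA (horizontal axis): PMAIP1 in red, the other 6 members in blue, the 26 genes of the ATF4 list in grey with a line at their median. PMAIP1 lies between 0.51 and 0.71, above every other member in each pair, and the medians of the ATF4 list are 0.27, 0.16, 0.15 and 0.14.

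**Figure D4:**
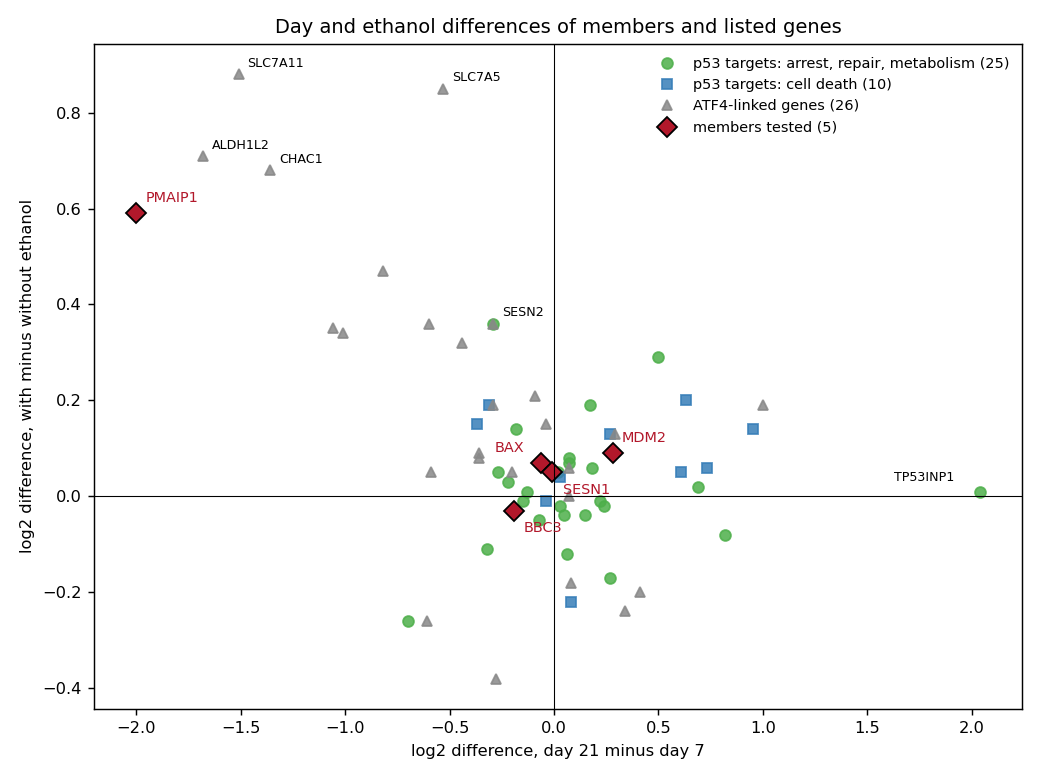
Day difference (horizontal axis, log2 day 21 minus day 7) against ethanol difference (vertical axis, log2 with minus without) for the 5 tested members (diamonds), 25 and 10 tested p53 targets (circles and squares) and the 26 genes of the ATF4 list (triangles). PMAIP1 lies at -2.0 and 0.59, and 13 of the 25 circles, 8 of the 10 squares and 21 of the 26 triangles lie above 0 for ethanol.

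Genes with a profile like that of PMAIP1 over the 9 arrays were common. By Pearson correlation, the most alike were IL4R (r = 0.994), SLIRP (0.994), MTHFD2 (0.993), FOLR1 (0.992), SLC25A44 (0.991), UBAP2 (0.991), BANF1 (0.99) and CLDN6 (0.99), and the most opposed CHD3 (-0.995), WDR13 (-0.987), MAP3K8 (-0.985) and LAMB2 (-0.983). In all 728 of the other 12253 tested genes (5.94%) had r over 0.9 and 242 (1.98%) over 0.95. The points share day as their main difference, so the values are a description. MTHFD2, a mitochondrial folate enzyme of the ATF4 list, was -1.06 ± 0.06 with day and 0.35 ± 0.06 with ethanol (limma adjusted p = 0.0533), and none of these 12 genes passed for ethanol. Over the 8 embryoid body arrays alone, 2 of the 8 most alike genes were again among the top 8.

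**Figure D5:**
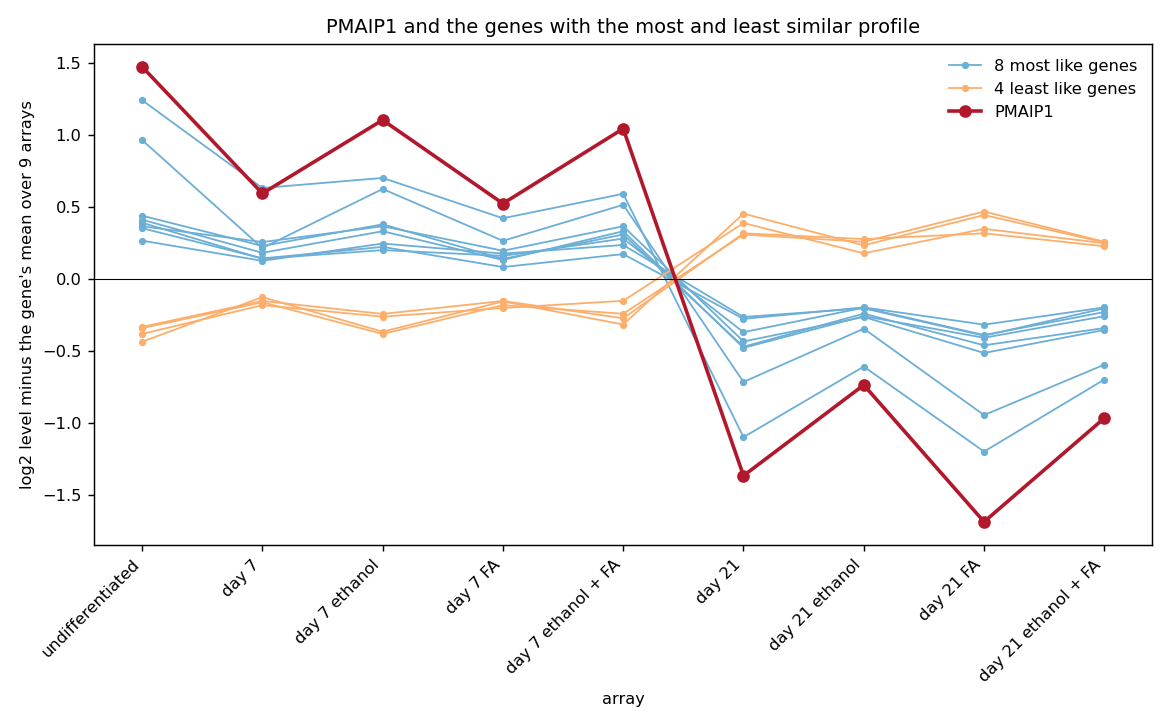
Log2 level minus the mean over the 9 arrays (vertical axis) for PMAIP1 (red), the 8 genes most like it (blue) and the 4 least like it (orange), by array (horizontal axis). PMAIP1 falls from the undifferentiated array to day 7 and to day 21 and is higher with ethanol at each day, and the correlation of the genes drawn runs from 0.994 down to -0.995.

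The other tested members had their own nearest genes. For BBC3 they were MAPK8IP2 (r = 0.979), IL17D (0.971) and TIGD3 (0.971). For BAX they were TMEM121 (0.962), GADD45GIP1 (0.955) and ATAD3A (0.952). For MDM2 they were LCOR (0.988), ZDHHC21 (0.987) and ETNK1 (0.986), and for SESN1 ACSS3 (0.967), DDX6 (0.965) and CLOCK (0.939). Most of these names change without the undifferentiated array: over the 8 embryoid body arrays, 1 of 3 was again among the top 3 for BBC3, 0 of 3 for BAX, 0 of 3 for MDM2 and 1 of 3 for SESN1. Between members, r over the 9 arrays was 0.81 for PMAIP1 with CDKN1A, -0.81 with MDM2, 0.60 with BAX, 0.37 with BBC3 and -0.19 with SESN1.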

How the data were processed

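Gene expression in the 9 NCCIT samples was measured on Affymetrix whole-transcript arrays. Per the submitters' processing notes, the authors used Affymetrix Expression Console 1.3.1 and RMA, and the deposited values are on a log2 scale. RMA corrects background, quantile-normalizes and summarises probes per transcript cluster, so a shift of most transcripts together is not visible. The log base was inferred from the values (2.49 to 14.3, array medians 7.67 to 7.76). No genome build is named in them. The number of arrays limits the precision.

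From the deposited values, 33297 clusters were named through the platform annotation: 19460 had 1 symbol, 1754 several and 12083 none. Of the first, 19429 matched RefSeq by Entrez ID, with 0 symbols changed. A gene took its brightest cluster (769 of 18417 genes had several). Genes with a maximum at or under 7.71 (6163) were left out.

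One additive model per gene (ethanol, FA, day and a term for the undifferentiated array) used all 9 arrays in limma 3.58.1, with statmod 1.5.0 and R 4.3.3, and had 4 residual degrees of freedom (prior 3.94) that also hold any true interaction. P-values were adjusted by Benjamini-Hochberg over 12254 genes at 0.05. Interaction terms were added singly, leaving 3 degrees of freedom. Fits were tested on simulated data.

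Members, lists and the promoter motifs were chosen with earlier results of these data known. From each list the 3 largest differences per comparison and all ethanol calls could be named, and for likeness the 8 highest and 4 lowest correlations for PMAIP1 and 3 for each other tested member, passing over small RNAs and provisional names. ATF4, DDIT3, EIF2AK4, CYCS and the other genes named outside that rule were chosen after their values were seen. Alternatives were another brightness limit, the mean of clusters, median centring, an intensity trend, robust variance, leaving out each array and, added after the data were seen, the matched pair of arrays as a block.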

Additional observations from a re-analysis of the deposited data

How the results depend on the processing

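The members' directions held under all filter, cluster, scaling and variance alternatives. PMAIP1 kept its calls for differentiation and day without each array. Without any limit on brightness, 2 members fell with day (CDKN1A added), 42 genes rose with ethanol (69 as reported) and 0 had a lower ethanol by day term (1 as reported). Median centring gave 32 genes higher with ethanol, and an intensity trend gave 124 higher and 31 lower (15 as reported). The cause was not tested.

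Leaving out 1 array gave 844 to 2008 genes higher and 1263 to 2817 lower for differentiation, 2474 to 3620 and 1963 to 3362 for day, 0 to 160 and 0 to 53 for ethanol, and 0 to 792 and 0 to 320 for ethanol by day. The members called were 0 to 2 higher for differentiation, 1 to 2 lower for day, 0 to 1 higher for ethanol and 0 to 1 lower for ethanol by day. Some uncalled differences changed sign: SESN1 ran from -0.08 to 0.04 for day and -0.01 to 0.12 for ethanol, BBC3 from -0.18 to 0.09 for ethanol, and for FA BAX ran from -0.07 to 0.02, MDM2 from -0.04 to 0.03 and SESN1 from -0.06 to 0.07. For ethanol by day, BBC3 ran from -0.53 to 0.20, MDM2 from -0.10 to 0.11 and SESN1 from -0.07 to 0.27. For ethanol by FA, PMAIP1 ran from -0.09 to 0.18, BBC3 from -0.61 to 0.04 and BAX from -0.19 to 0.05.

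With the matched pair of arrays as a block, a fit added after the data were seen that leaves 3 residual degrees of freedom, the paired ethanol difference of PMAIP1 was 0.59 (limma adjusted p = 0.0175), no member's call changed for day, ethanol or FA, and 98 genes rose and 28 fell with ethanol. With 1 array per condition, an interaction and array noise share the residual. CDKN1A and FAS were too dim to be tested.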
